A study of Homo sapiens with 8 samples.

Results

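Strong shared promoter regions are stretches of the genome, next to a transcription start site, where both AML1-ETO and ETO2-GLIS2 gave a strong ChIP-seq peak after 48 h of induction. ChIP-seq sequences the DNA fragments that an antibody precipitates together with a protein, and a peak is an interval with more fragments than its surroundings. The regions were chosen by measured values. An AML1-ETO 48 h peak on chromosomes 1 to 22 was kept if its −log10 q was at least 10, if it was under 8000 bp wide, if it shared at least 1 bp with an ETO2-GLIS2 48 h peak whose −log10 q was also at least 10, and if its summit lay within 1 kb of an annotated start site. The q-value is the peak caller's p-value corrected for the number of places tested, so a −log10 q of 10 is a strict limit. The rule found 5103 regions among 104677 AML1-ETO 48 h peaks, a share of 4.88% (95% interval 4.75 to 5.01), and among 24845 of these peaks that reached the limit. Since the rule uses the 48 h peaks of both proteins, their 48 h strength and width are given as descriptions only.

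Each fusion protein was expressed in U937, a human monoblastic cell line, from a stable line that is a single clone. AML1-ETO or ETO2-GLIS2 carried an HA tag at its N-terminus and was made from a retroviral, doxycycline-inducible vector. Cells received doxycycline at 5 µg/ml for 12 h or 48 h, and chromatin was precipitated with anti-HA beads. The 8 libraries are 1 ChIP library and 1 input for AML1-ETO at 48 h, ETO2-GLIS2 at 48 h, AML1-ETO at 12 h and ETO2-GLIS2 at 12 h. No group has a replicate, so no test between conditions was possible and no p-value is given. Intervals are 95% intervals that cover counting error over regions only, and neighbouring regions are not independent. The peak lists hold no read numbers per peak. By the library totals that the study lists, the ChIP library of AML1-ETO at 48 h was sequenced far more deeply than that of ETO2-GLIS2 at 48 h, and the 12 h libraries lay closer together. The number, width and strength of called peaks depend on depth, and no values were scaled for it. The study considers leaky expression of the fusion proteins without doxycycline likely, and no anti-HA library from cells without a fusion protein was analysed here.

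AML1-ETO joins the DNA-binding Runt domain of RUNX1 to ETO (RUNX1T1), a corepressor that recruits histone deacetylases. ETO2-GLIS2 joins ETO2 (CBFA2T3), a relative of ETO, to the zinc fingers of GLIS2, which read a G-rich site. The proteins thus share an ETO-type partner and differ in the part that reads DNA. Many promoters of mammalian genes lie in CpG islands, which are rich in G and C, are open in most cell types and hold sites of SP/KLF and ETS factors.

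Sequences under some summits are printed as examples of the DNA in these promoters, chosen because they hold a named motif. Each holds the summit with 50 bp to either side on the + strand of GRCh37, with the named motif in capitals. All windows shown meet no annotated exon. For each motif described here, the region with the highest ETO2-GLIS2 fold enrichment that held it was taken. A Runt site (TGTGGT or TGCGGT on either strand) began 28 bp from the AML1-ETO summit in an intron of HDAC1, which encodes a histone deacetylase (chr1:32758198-32758298).
HDAC1: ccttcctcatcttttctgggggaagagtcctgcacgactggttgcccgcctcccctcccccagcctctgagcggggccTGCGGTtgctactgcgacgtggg
A GLIS core (TGGGGGG) began 37 bp from the ETO2-GLIS2 summit of CDKN1B, a cell cycle inhibitor gene, inside an intron of an annotated transcript (chr12:12869774-12869874).
CDKN1B: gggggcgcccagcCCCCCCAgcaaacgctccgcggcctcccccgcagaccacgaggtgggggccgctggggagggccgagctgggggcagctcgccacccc
The longer GLIS site, which extends this core on both sides, began 15 bp from the ETO2-GLIS2 summit of SP1, the gene of a GC-box factor, again within an intron (chr12:53774286-53774386).
SP1: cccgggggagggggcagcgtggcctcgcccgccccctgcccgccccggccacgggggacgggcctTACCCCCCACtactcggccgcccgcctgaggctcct
A long ETS site (CCGGAAGT) began 29 bp from the AML1-ETO summit, which lay 62 bp upstream of WDFY2. The summits of both proteins fell on the same base there (chr13:52158479-52158579).
WDFY2: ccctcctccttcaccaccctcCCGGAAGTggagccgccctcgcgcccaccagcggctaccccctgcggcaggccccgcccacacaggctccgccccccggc
An E-box (CAGCTG) began 4 bp from the AML1-ETO summit in an intron of DENND4B, which had the highest ETO2-GLIS2 enrichment of the 5103 regions (chr1:153918640-153918740).
DENND4B: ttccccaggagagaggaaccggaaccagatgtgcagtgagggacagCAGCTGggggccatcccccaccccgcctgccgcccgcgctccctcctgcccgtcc

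In some other promoters the summits were apart and each had its own kind of site within 50 bp. METRNL and LASP1 are shown because, of the regions with summits at least 200 bp apart, they had the highest ETO2-GLIS2 enrichment with a Runt site in the AML1-ETO window only and a GLIS core in the ETO2-GLIS2 window only. These pairs were chosen after their values had been seen. In METRNL, which encodes a secreted protein, the AML1-ETO summit was 248 bp and the ETO2-GLIS2 summit 842 bp downstream of the start site (chr17:81038273-81038373 and chr17:81038867-81038967, both in an intron). Capitals mark the Runt site in the first sequence and 2 GLIS cores in the second.
METRNL, AML1-ETO summit: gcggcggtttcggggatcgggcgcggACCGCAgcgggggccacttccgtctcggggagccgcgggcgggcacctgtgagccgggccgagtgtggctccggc
METRNL, ETO2-GLIS2 summit: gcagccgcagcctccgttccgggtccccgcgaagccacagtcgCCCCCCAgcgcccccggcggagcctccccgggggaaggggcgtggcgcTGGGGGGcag
In LASP1, which encodes an actin-binding protein, the AML1-ETO summit was 184 bp upstream of a start site and the ETO2-GLIS2 summit lay 1051 bp away in an intron (chr17:37025878-37025978 and chr17:37026929-37027029).
LASP1, AML1-ETO summit: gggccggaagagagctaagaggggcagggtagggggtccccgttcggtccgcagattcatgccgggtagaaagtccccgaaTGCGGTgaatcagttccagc
LASP1, ETO2-GLIS2 summit: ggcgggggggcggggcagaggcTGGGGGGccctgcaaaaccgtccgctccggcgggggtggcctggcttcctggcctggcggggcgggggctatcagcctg

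The regions had the base composition of CpG-island promoters. In 200 bp windows at the AML1-ETO summits the median GC content was 71%, and 77.1% (76.0 to 78.3) of the windows were CpG-rich, which means over 50% GC and a ratio of observed to expected CpG over 0.6. At the ETO2-GLIS2 summits 74.7% (73.4 to 75.9) were CpG-rich. The share was 18.2% in windows 1 kb to either side, 59.1% at the starts of all protein-coding genes and 11.1% in the 3147 strong shared regions outside promoters, chosen in the same way but with summits over 1 kb from a start site (distal regions). Without an anti-HA library from cells that lack a fusion protein, enrichment of CpG-rich promoters in any such precipitation and binding of the fusion proteins cannot be told apart. The CpG-rich share was 60.8% in the 5326 promoter regions that were strong for AML1-ETO but had no strong ETO2-GLIS2 peak, of which 2763 had a weaker one. The nearest start site belonged to a protein-coding gene in 82.3% of the regions, to a long non-coding RNA in 14.6%, to a miRNA in 37 regions and to an snRNA in 13. A protein-coding start site lay within 1 kb of the summit in 89.4%, and 13.3% had start sites of at least 2 protein-coding genes.

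Start sites that point away from each other on opposite strands, within 1 kb of each other, occurred in 28.2% (27.0 to 29.5) of the regions. In the promoter regions without a strong ETO2-GLIS2 peak the share was 24.1% (22.96 to 25.3), so the strong shared promoters were divergent more often by 4.13 percentage points (2.44 to 5.82). The share counts all annotated transcripts and fell to 11.2% with start sites of protein-coding genes only. In all, 4991 of 19222 protein-coding genes had a strong shared promoter region, which is 26.0%, and 289 of them had at least 2 regions.

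The regions that bound the rule show how it separates them. The AML1-ETO peaks just inside were those of EIF2AK1, C2orf50 and SPIRE2, with −log10 q of 10.03, 10.09 and 10.18 and fold enrichments of 5.51, 5.36 and 4.55. Just outside were MED8, MSANTD1 and GSN, at 9.96, 9.95 and 9.79. The ETO2-GLIS2 peaks just inside were those of RNU1-27P and MIEN1, both at 10.003, and SELENOS at 10.03, and among those just outside were ZNF248 and DISC1, at 9.90 and 9.87. Fold enrichment is the linear ratio of the signal at the summit to the local background that the peak caller computed, and its size was not compared between proteins. Where values of both are printed side by side, each describes its own list. Its median over the regions was 19.6 for AML1-ETO at 48 h (95% interval 18.95 to 20.003) and 13.7 for ETO2-GLIS2 (13.4 to 13.9). The median rank lay within the top 5.49% of the AML1-ETO list and the top 16.9% of the ETO2-GLIS2 list. Across the 5103 regions the fold enrichments of the proteins at 48 h had a Spearman correlation of 0.24, against 0.37 over the distal regions. The same protein at 12 h and 48 h had 0.87 for AML1-ETO and 0.85 for ETO2-GLIS2. These are correlations across regions of the same libraries, and regions are not replicates.

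Summits of both proteins lay near start sites. At 48 h 49.9% (48.5 to 51.3) of AML1-ETO summits and 44.7% (43.3 to 46.0) of ETO2-GLIS2 summits lay within 100 bp of a start site, and the medians of the distance had intervals of 95 to 107 bp and 116 to 128 bp. The rule limits the AML1-ETO distance at 48 h to 1 kb and sets no such limit for ETO2-GLIS2, so the order of these values is a description only. Of the ETO2-GLIS2 summits 97.6% were also within 1 kb. At 12 h, which the rule did not use, the shares within 100 bp were 45.1% (43.8 to 46.5) and 42.7% (41.3 to 44.1). The median distances at 12 h were 119.5 bp (114 to 125) and 131 bp (124 to 138). These intervals met, which does not show that the proteins were alike, and the difference was not tested.

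**Figure D1:**
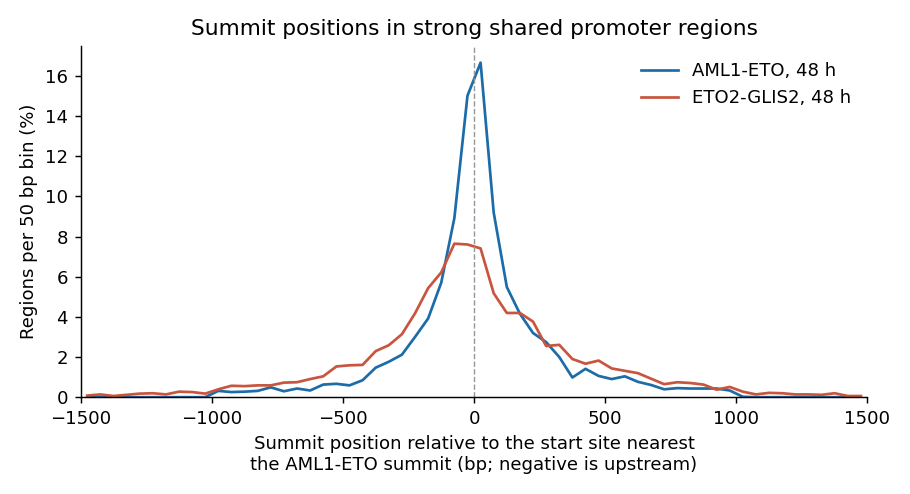
Position of the 48 h summits of both proteins relative to the start site nearest the AML1-ETO summit, in bins of 50 bp (horizontal axis in bp, negative is upstream; vertical axis in percent of the 5103 regions). The AML1-ETO curve reaches 16.7% in the bin just downstream of the start site, and the ETO2-GLIS2 curve peaks at 7.64%. Both are centred by the AML1-ETO summit, which the rule keeps within 1 kb, so the difference in shape follows in part from that choice.

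Summits of the proteins were often apart within a promoter. The median distance between them was 152 bp (144 to 160) at 48 h and 176 bp (166 to 185) at 12 h, against 46 bp (41 to 49) in distal regions at 48 h. Summits of the same protein at the different times were nearer, with medians of 40.5 bp (38 to 43) for AML1-ETO and 29 bp (27 to 30) for ETO2-GLIS2. At 48 h 30.2% of the regions had summits within 50 bp, 57.4% within 200 bp and 81.0% within 500 bp. The ETO2-GLIS2 summit was upstream of the AML1-ETO summit, with regard to the gene, in 53.4% (52.0 to 54.8) of regions with different summit positions. More than 1 strong ETO2-GLIS2 peak was found in 6.62% of the regions.

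AML1-ETO peaks were the wider ones in these lists, whose libraries differ in depth, and the part of depth in the widths was not tested. The median width at 48 h was 2790 bp (2737 to 2842) for AML1-ETO and 1088 bp (1066 to 1112) for ETO2-GLIS2, and the ETO2-GLIS2 peak lay wholly inside the AML1-ETO peak in 82.6% of the regions. At 12 h the medians were 1561 bp and 927 bp. Promoters had wider ETO2-GLIS2 peaks than distal regions (1088 bp against 719 bp), while the AML1-ETO widths were 2790 bp and 2831 bp. In the 3455 regions whose start sites were all on the same strand, AML1-ETO peaks reached a median of 1187 bp upstream and 1507 bp downstream of the start site, and ETO2-GLIS2 peaks reached 480 bp and 594 bp. The reach was longer downstream in 62.1% (60.5 to 63.8) and 58.2% (56.5 to 59.8) of them. In the 1441 divergent regions these shares were 57.8% (55.2 to 60.4) for AML1-ETO and 51.5% (48.9 to 54.1) for ETO2-GLIS2. The latter interval includes 50%.

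Nearly all regions overlapped a 12 h peak of each protein, of any strength. An AML1-ETO 12 h peak overlapped 98.6% (98.2 to 98.9) of them and an ETO2-GLIS2 12 h peak overlapped 97.2% (96.7 to 97.6). Of all 24845 AML1-ETO 48 h peaks that reached the limit, 91.6% overlapped an AML1-ETO 12 h peak and 58.3% an ETO2-GLIS2 12 h peak. The share with an AML1-ETO 12 h peak was 97.8% in distal regions and 91.1% in promoters without a strong ETO2-GLIS2 peak, which is 0.79 points (0.21 to 1.44) and 7.51 points (6.68 to 8.35) lower. The share with an ETO2-GLIS2 12 h peak was lower by 2.15 points (1.29 to 3.07) in distal regions, where it was 95.01%. It was lower by 50.2 points (48.8 to 51.6) in promoters without a strong ETO2-GLIS2 peak, where it was 46.9%. The choice of groups by the ETO2-GLIS2 peak at 48 h fixes the direction of this last difference, since the strengths at the different times go together. The latter promoters also had weaker AML1-ETO 48 h peaks, with a median fold enrichment of 9.79 against 19.6 in the strong shared promoters. Their AML1-ETO peaks were narrower too, with a median of 1576 bp. The part of strength and width in the shares, also in those with an AML1-ETO 12 h peak, was not tested.

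The advantage over distal regions did not hold for strong 12 h peaks. When the limit of 10 was also set for the 12 h peaks, 84.95% (83.9 to 85.9) of the promoter regions and 85.8% (84.6 to 87.0) of the distal regions had an AML1-ETO peak. For ETO2-GLIS2 the shares were 81.2% (80.1 to 82.3) and 83.9% (82.6 to 85.2), so the distal regions were higher. Peaks of both proteins at 12 h were found in 95.8% of the promoter regions and of neither in 5 regions. These 5 were at PCTP, HOOK2, AP2A1, SETMAR and AP3M2, with AML1-ETO fold enrichments between 6.02 and 10.04 and ETO2-GLIS2 fold enrichments between 6.51 and 9.05 at 48 h. All of these values lie below the medians of the set. CDNF was the strongest ETO2-GLIS2 region without an ETO2-GLIS2 peak at 12 h, at 40.1 for ETO2-GLIS2 at 48 h and, for AML1-ETO, 22.1 at 48 h and 12.5 at 12 h.

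**Figure D2:**
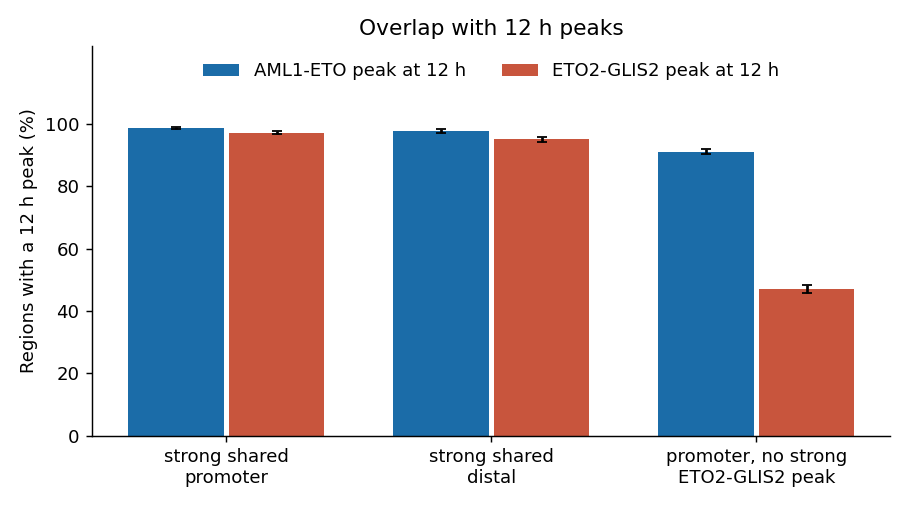
Share of regions with an overlapping 12 h peak of each protein (vertical axis in percent, bars from 0) for strong shared promoter regions, strong shared distal regions and promoter regions without a strong ETO2-GLIS2 peak. Error bars are exact 95% intervals, and the ETO2-GLIS2 bar falls from 97.2% to 46.9% between the first and the last group.

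The DNA under the summits differed between the proteins within the same promoters. Runt sites were found in 23.8% (22.7 to 25.04) of 200 bp windows at AML1-ETO summits and in 16.9% (15.9 to 17.9) at ETO2-GLIS2 summits. GLIS cores had the opposite order, at 7.15% (6.46 to 7.89) and 12.4% (11.5 to 13.3). In flanks 1 kb away the shares were 14.4% (13.8 to 15.1) for Runt and 5.85% (5.40 to 6.32) for GLIS. At the starts of all protein-coding genes they were 13.7% and 5.09%. The longer GLIS site was in 48 windows at ETO2-GLIS2 summits, or 0.94% (0.69 to 1.25), and in 13 at AML1-ETO summits, or 0.25% (0.14 to 0.44), against 0.26% in flanks and 0.14% at all gene starts. A match is a run of letters and was not shown to be bound.

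**Figure D3:**
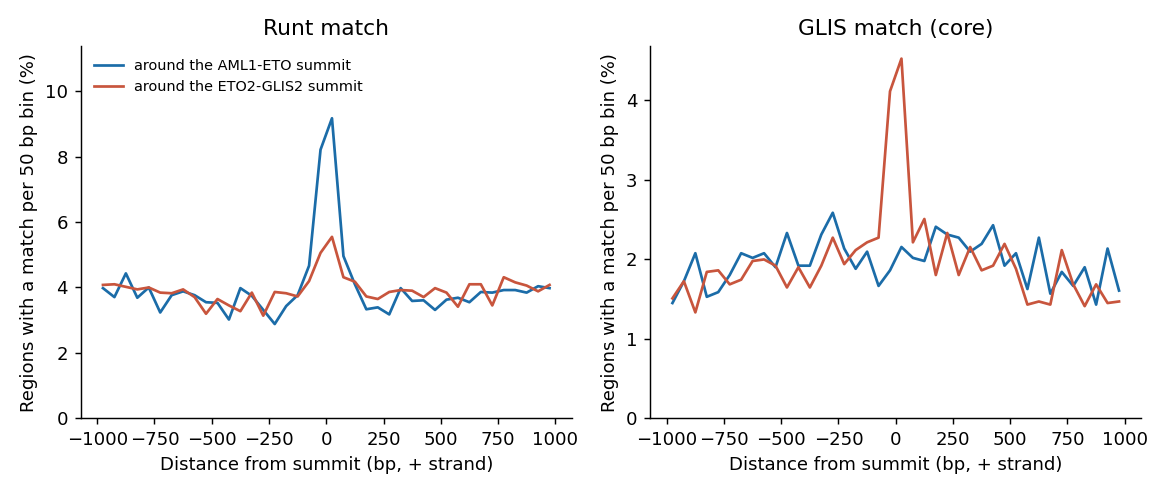
Share of the regions with a Runt match (left) or a GLIS core match (right) in each 50 bp bin within 1000 bp of the AML1-ETO summits and the ETO2-GLIS2 summits at 48 h (horizontal axis in bp along the + strand, vertical axis in percent). Runt matches reach 9.17% per bin at AML1-ETO summits and 5.55% at ETO2-GLIS2 summits, while GLIS matches rise to 4.53% at ETO2-GLIS2 summits and stay between 1.43% and 2.59% around AML1-ETO summits.

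The contrast was sharper where the windows did not share bases. In the 2182 regions with summits at least 200 bp apart, Runt sites were in 23.5% of AML1-ETO windows and 11.8% of ETO2-GLIS2 windows. The site was in the AML1-ETO window only in 461 regions and in the ETO2-GLIS2 window only in 206, so AML1-ETO had 69.1% (65.5 to 72.6) of the regions with a site in 1 window. For GLIS cores the shares were 5.36% and 14.3%, with 94 regions on the AML1-ETO side and 290 on the other. METRNL and LASP1, printed above, are of this kind. At 12 h the 2287 regions with such a distance gave 24.3% and 12.2% for Runt and 6.73% and 14.7% for GLIS, the same order in peak lists the rule did not use. Over the regions, 12 h and 48 h summits lay a median of 40.5 bp apart for AML1-ETO and 29 bp for ETO2-GLIS2. The windows of the different times thus often share bases, and the 12 h order is not separate support. Long ETS sites were about as frequent in both windows at 48 h (2.75% and 2.43%), as was the E-box CAGCTG (14.9% and 14.4%). For the latter, 51.0% (46.7 to 55.3) of the regions with a site in 1 window had it at AML1-ETO. The Runt and GLIS contrast was not particular to promoters. In 808 distal regions with summits at least 200 bp apart at 48 h, Runt sites were in 36.4% of AML1-ETO and 23.1% of ETO2-GLIS2 windows. GLIS cores were in 4.21% and 11.3% of them.

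Base composition moved with these shares, so they were also given by GC content of the window. Runt sites were more frequent at AML1-ETO than at ETO2-GLIS2 summits in 4 of 5 GC classes, for example 29.4% against 20.2% from 60% to 70% GC and 17.8% against 11.5% from 70% to 80%. In windows under 50% GC the order was the other way, at 39.6% and 45.2%. GLIS cores were more frequent at ETO2-GLIS2 summits in all 5 classes, with 12.2% against 7.66% from 60% to 70% GC. Gene starts in general held fewer Runt sites than the summits of either protein in each of the 5 classes. They held fewer GLIS cores than ETO2-GLIS2 summits in all 5 classes and than AML1-ETO summits in 4.

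At the AML1-ETO summits of these promoters the Runt site was more often the form with a CpG. TGCGGT was in 13.4% (12.5 to 14.4) of AML1-ETO windows and TGTGGT in 11.6% (10.7 to 12.5), and a window may hold both. At the ETO2-GLIS2 summits the values were 8.49% (7.73 to 9.28) and 9.19% (8.41 to 10.02), whose intervals overlap. In distal regions the order was turned, at 10.0% and 34.8%, and in the flanks it was 4.20% and 10.5%. Between 50% and 60% GC, promoter windows held TGCGGT in 12.0% and TGTGGT in 32.3% of cases, and between 70% and 80% in 13.1% and 5.48%. Any Runt site was rarer in promoters (23.8%) than in distal regions (42.1%) and than in promoters without a strong ETO2-GLIS2 peak (28.1%). The GLIS core at the AML1-ETO summit, in contrast, was in 7.15% of the strong shared promoters and in 3.53% (3.05 to 4.06) of the promoters without a strong ETO2-GLIS2 peak. These groups differed in base composition. The median GC content at AML1-ETO summits was 71% in strong shared promoters, 57.5% in distal regions and 64.5% in promoters without a strong ETO2-GLIS2 peak. The part of GC content in the differences between groups was not tested.

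Regions with stronger 12 h peaks held the protein's own site more often, and some other sites rose as well. The 12 h lists were taken because the rule used the 48 h strength, although strengths at the different times go together. The regions with a 12 h peak were split into 4 groups of about equal size by its −log10 q. The share with a Runt site at the AML1-ETO 12 h summit was 17.2% (15.2 to 19.4), 22.4%, 27.9% and 33.6% (31.0 to 36.3) from weakest to strongest. GLIS cores at the ETO2-GLIS2 12 h summit went from 9.23% (7.72 to 10.9) through 11.4% and 14.7% to 16.5% (14.4 to 18.6). Over the AML1-ETO groups the GC box GGGCGG, bound by SP and KLF factors, rose by a similar number of points, from 50.5% (47.7 to 53.3) through 55.9% and 59.8% to 65.1% (62.4 to 67.7). The E-box CAGCTG went from 14.2% to 20.06% over the AML1-ETO groups and from 12.9% to 18.95% over those of ETO2-GLIS2, so a rise was not particular to the Runt and GLIS sites.

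Both forms of the Runt site took part at 12 h. TGCGGT went from 8.39% to 19.7% and TGTGGT from 9.41% to 16.6% between the weakest and the strongest AML1-ETO group. GLIS cores at the AML1-ETO 12 h summit lay between 6.95% and 8.62%, and Runt sites at the ETO2-GLIS2 12 h summit between 16.2% and 19.4%. Groups made from the 48 h −log10 q are a description, since the rule used it. There Runt sites went from 16.9% to 30.1%, GLIS cores from 7.93% to 17.3% and GC boxes at the AML1-ETO summit from 51.9% to 70.7%. TGCGGT went from 7.17% to 18.8% and TGTGGT from 10.4% to 12.8%, so the form without a CpG moved little at 48 h.

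**Figure D4:**
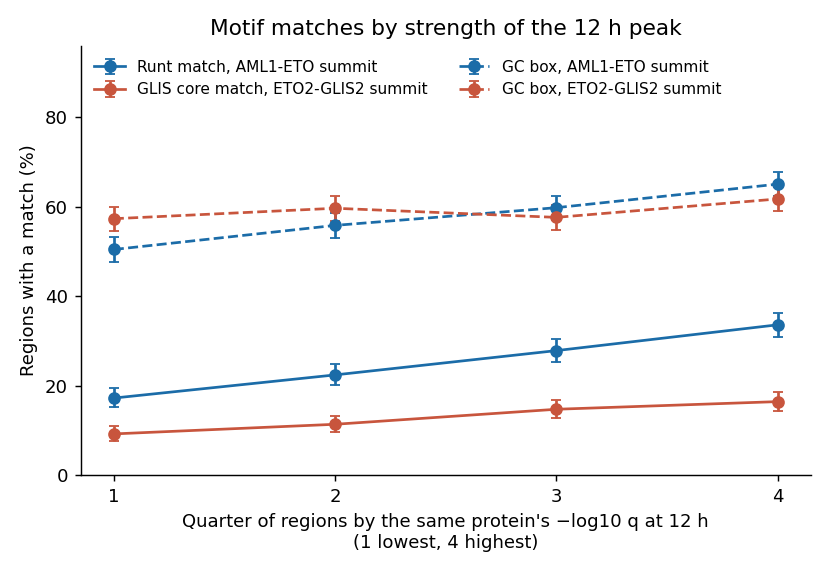
Share of regions with a Runt match at the AML1-ETO 12 h summit, a GLIS core match at the ETO2-GLIS2 12 h summit and a GC box at either (vertical axis in percent, with exact 95% intervals) in 4 groups of the regions by the 12 h −log10 q of the same protein (horizontal axis, 1 lowest, 4 highest). Runt goes from 17.2% to 33.6%, GLIS from 9.23% to 16.5% and the GC box at AML1-ETO summits from 50.5% to 65.1%.

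Sites also differed with the balance between the proteins. The 4890 regions with 12 h peaks of both were ranked by the 12 h −log10 q of each protein, ordered by the difference of these ranks and split into 3 groups of 1630. In the group that leaned to AML1-ETO, 30.7% (28.5 to 33.04) had a Runt site at the AML1-ETO 12 h summit and 10.0% (8.59 to 11.6) a GLIS core at the ETO2-GLIS2 12 h summit. In the group that leaned to ETO2-GLIS2 the shares were 20.5% (18.6 to 22.5) and 15.3% (13.6 to 17.1). The GC box at AML1-ETO summits moved as well, with 63.7% (61.3 to 66.02) and 52.5% (49.996 to 54.9), and so did the CCAAT box of NF-Y at ETO2-GLIS2 summits, with 12.2% (10.7 to 13.9) and 15.8% (14.1 to 17.7). For TGTGGT at AML1-ETO summits the intervals overlapped, at 13.3% (11.7 to 15.06) and 11.3% (9.85 to 12.99), while TGCGGT was in 19.3% (17.4 to 21.3) and 10.3% (8.87 to 11.9).

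GC boxes and ETS sites were about as frequent at the summits of both proteins. The CCAAT box of NF-Y was not, at 10.7% (9.83 to 11.5) of AML1-ETO and 13.4% (12.5 to 14.4) of ETO2-GLIS2 windows. The GC box was in 60.9% of AML1-ETO and 60.5% of ETO2-GLIS2 windows, against 15.6% in flanks, 46.9% at all gene starts and 16.1% at distal AML1-ETO summits. Within classes of GC content, it was more frequent than at gene starts in 0 of 5 classes for either protein. The ETS core CGGAA, which is part of the long ETS site, was in 35.4% and 36.1%, against 13.9% in flanks and 16.8% at distal AML1-ETO summits. At all gene starts it was in 31.6% (30.9 to 32.2), and either protein's summits were above gene starts in 3 of 5 GC classes. The long ETS site CCGGAAGT was in 3.21% (2.75 to 3.74) and 3.17% (2.71 to 3.69) and in 0.24% of flanks, but in 4.54% (4.25 to 4.85) of all gene starts. CAGCTG, a palindrome, was in 17.0% and 16.5%, against 10.1% in flanks, 13.3% at all gene starts and 24.8% at distal AML1-ETO summits. Sites of AP-1 (TGACTCA or TGAGTCA) and C/EBP (TTGCNNAA), factors of myeloid enhancers, were in 2.88% and 4.43% of promoter windows at AML1-ETO summits. In distal windows they were in 10.1% and 14.5%.

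The strongest regions differed between the proteins. By AML1-ETO fold enrichment, the region of CKAP2, which encodes a protein of the mitotic spindle, came first (chr13:53027230-53031487). Its fold enrichments were 184 for AML1-ETO at 48 h and 165 at 12 h, and 7.80 and 3.81 for ETO2-GLIS2. At 48 h it was the peak of rank 4 in the AML1-ETO list and lay at 26.2% of the ETO2-GLIS2 list. LINC02256, NDUFV3 (a complex I subunit) and HNRNPU (an RNA-binding protein) were like it in rank, within the top 0.036% of the AML1-ETO list and at 15.6% to 23.8% of the ETO2-GLIS2 list at 48 h. MFSD3, a transporter gene, was near the top of both lists, at 0.012% and 0.471%.

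By ETO2-GLIS2 fold enrichment, DENND4B came first (chr1:153916467-153921104), at 263 at 48 h and 223 at 12 h, with AML1-ETO values of 77.0 and 73.9. HDAC1 (chr1:32756967-32758920) had ETO2-GLIS2 values of 204 and 135 and AML1-ETO values of 14.3 and 11.0. The PCGF3-AS1 region reached 200.4 for ETO2-GLIS2 with 6.27 for AML1-ETO at 48 h, so it was in the top 0.060% of the former list and at 20.7% of the latter. TSPAN32, a tetraspanin gene of blood cells, had 170 and 47.7 for ETO2-GLIS2 and AML1-ETO at 48 h, and HM13-AS1 had 167 and 55.3. The regions with the best position in all 4 lists were those of DENND4B, MRPL34 (a mitochondrial ribosomal protein), RN7SKP249, TRPM2 (a cation channel) and SLC1A4 (an amino acid transporter). Each of them was in the top 0.731% of every list.

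Gene lists differed in the share of genes with a strong shared promoter region, from none of the olfactory receptors to most of the corepressors and coactivators of ETO and RUNX proteins. The shares below are read against 26.0% for all protein-coding genes. They are counts without a test, and the lists were drawn up with earlier results of these data known. Of 398 olfactory receptor genes none had a region, and of 55 keratin genes only KRT7 did. Housekeeping lists lay around the background. They ranged from 16 of 73 for cytosolic ribosomal proteins and 18 of 78 for mitochondrial ones, through 11 of 39 for replication genes, 17 of 56 for splicing factors and 14 of 42 for proteasome subunits, to 12 of 32 for aminoacyl-tRNA synthetases. An AML1-ETO 48 h summit of any strength lay within 1 kb for 91.8% (cytosolic ribosomal) to 100% (synthetases) of the genes of these lists. The share over all protein-coding genes was 61.1%. Complex I subunits had a strong shared promoter region in 8 of 35 genes, zinc finger genes in 106 of 496 and replication-dependent histone genes in 10 of 64. Histone pairs that share a promoter share a region, and near-identical histone and zinc finger copies make the placing of reads uncertain.

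**Figure D5:**
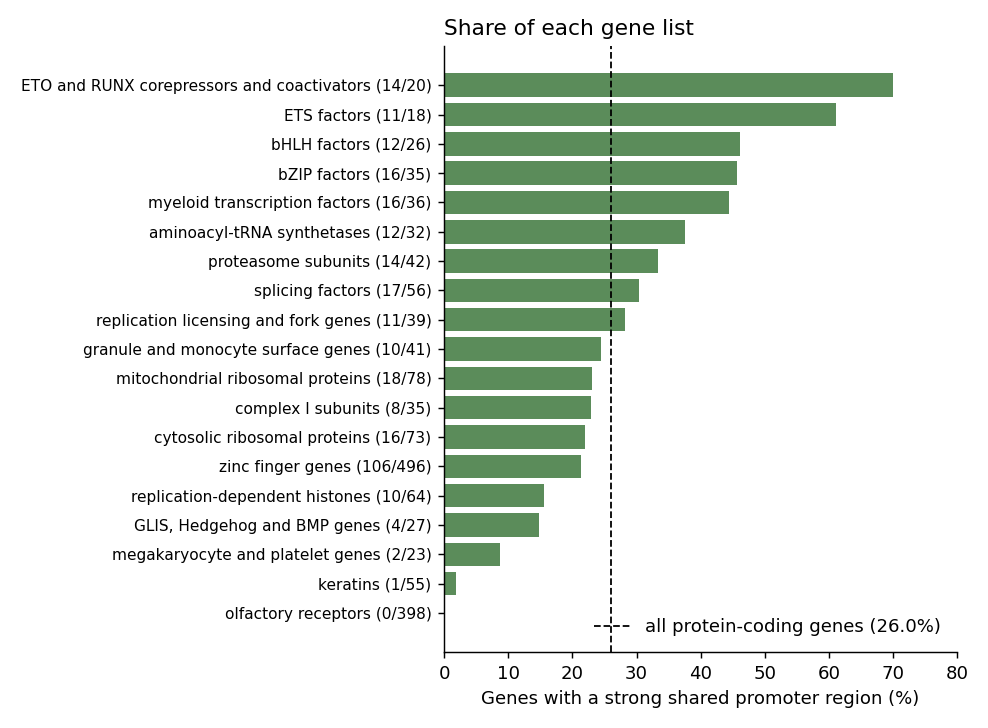
Share of the genes of each of 19 lists with a strong shared promoter region (horizontal axis in percent, bars from 0; in brackets the number of genes with a region and the number annotated). The dashed line marks 26.0% for all protein-coding genes, and the bars reach from 0% for olfactory receptors to 70% for corepressors and coactivators of ETO and RUNX proteins.

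Corepressors and coactivators of ETO and RUNX proteins stood highest, with 14 of 20 genes. HDAC1 is described above. At CBFA2T3, the gene of ETO2 itself, AML1-ETO had fold enrichments of 32.1 at 48 h and 32.8 at 12 h, and ETO2-GLIS2 had 66.1 and 48.5. SIN3A, a scaffold of deacetylase complexes, had 27.6 and 16.7 for AML1-ETO against 53.4 and 31.3 for ETO2-GLIS2. Over the 14 genes the 48 h fold enrichment ran from 7.78 (PRMT1, an arginine methyltransferase) to 68.5 (LMO2, a haematopoietic adaptor) for AML1-ETO and from 8.19 (KDM1A, a histone demethylase) to 204 for ETO2-GLIS2. GPS2 was the only one of them without an ETO2-GLIS2 peak at 12 h. CBFA2T2, CREBBP, HDAC3, LDB1, NCOR1 and RUNX1T1 had no region.

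Of 36 myeloid transcription factor genes 16 had a region, and 6 others, RUNX1, CEBPA, CEBPB, GFI1, HOXA10 and IKZF1, had a shared peak that was left out because it was at least 8000 bp wide. RUNX3, a Runt factor of lymphoid and myeloid cells, had 62.0 and 44.4 for AML1-ETO at 48 h and 12 h and 130.1 and 102 for ETO2-GLIS2. RUNX2, a Runt factor of bone, had 77.8 and 62.3 for AML1-ETO against 41.5 and 23.1 for ETO2-GLIS2. At 48 h RUNX3 ranked within the top 0.40% of the AML1-ETO list and the top 0.18% of the ETO2-GLIS2 list, and RUNX2 within the top 0.15% and the top 3.95%. CEBPG had 79.5 and 52.0 for AML1-ETO against 57.3 and 48.2 for ETO2-GLIS2, and IRF1, an interferon-response factor, had 12.8 and 6.08 against 40.9 and 15.1. SPI1, which encodes PU.1, had no AML1-ETO 48 h summit within 1 kb of its start sites.

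ETS factors had 11 of 18 genes. ELF2 had fold enrichments of 41.7 and 33.7 for AML1-ETO at 48 h and 12 h and 70.6 and 74.6 for ETO2-GLIS2 in the stronger of its 2 regions. ETV6, a repressor needed in blood stem cells, had 42.4 and 29.5 for AML1-ETO against 56.0 and 47.1 for ETO2-GLIS2. ETV5 and ETS2 followed with ETO2-GLIS2 values of 37.1 and 22.9 at 48 h. GABPA and GABPB1, the subunits of the GABP factor of housekeeping promoters, differed in AML1-ETO enrichment (12.6 and 46.6 at 48 h) and had 10.2 and 9.78 for ETO2-GLIS2. ERG had no ETO2-GLIS2 peak at its AML1-ETO peak, and FLI1 had an AML1-ETO peak under the limit.

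Factors of the bHLH class had 12 of 26 genes and those of the bZIP class 16 of 35. MLX and MNT, partners in the MAX network, led the bHLH genes for ETO2-GLIS2, with 78.4 and 74.6 at 48 h and 56.6 and 57.0 at 12 h. MYC had 53.4 for AML1-ETO and 11.9 for ETO2-GLIS2 at 48 h, which placed it within the top 0.456% of the former list and at 15.2% of the latter. TCF12, an E-protein, had 62.3 and 12.1 and lay at 0.259% and 20.3%. Among bZIP genes JUND, an AP-1 subunit, had 54.7 and 30.1 for AML1-ETO at 48 h and 12 h and 127 and 118 for ETO2-GLIS2. NFE2L1, a regulator of proteasome genes, had 90.8 and 69.9 for AML1-ETO against 7.76 and 7.80 for ETO2-GLIS2. It was thus in the top 0.068% of the AML1-ETO list at 48 h and at 32.4% of the ETO2-GLIS2 list.

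Genes of granule proteins and the monocyte surface lay near the background, at 24.4% against 26.0%. Of 41 granule and monocyte surface genes 10 had a region. The granule protein genes ELANE, PRTN3 and AZU1, which are neighbours on chromosome 19, each had their own. ELANE (chr19:847627-854613) had 20.7 and 11.5 for AML1-ETO at 48 h and 12 h and 35.3 and 24.6 for ETO2-GLIS2. PRTN3 had 16.1 and 14.6 against 23.7 and 24.2, and AZU1 had 29.4 and 25.5 against 14.9 and 21.7. CSF3R, the G-CSF receptor gene, had 6.82 and 6.38 against 23.5 and 10.5. At ITGB2, a leukocyte integrin gene, both 48 h values were low, at 5.13 for AML1-ETO and 7.49 for ETO2-GLIS2, and no ETO2-GLIS2 12 h peak was found.

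Of 23 megakaryocyte and platelet genes 2 had a region. They were ZFPM1, which encodes the GATA1 partner FOG1, at 13.6 for AML1-ETO and 12.1 for ETO2-GLIS2 at 48 h, and RAB27B, a gene of granule transport, at 12.0 and 8.62. Of 27 genes of the GLIS family and the Hedgehog and BMP pathways 4 had a region. SMAD7, an inhibitor of BMP and TGF-beta signals, had 46.2 and 24.6 for AML1-ETO at 48 h and 12 h and 53.4 and 34.6 for ETO2-GLIS2. PTCH1, the Hedgehog receptor gene, had 18.8 and 28.9 against 29.3 and 30.2, with the summits 8 bp apart at 48 h. GLI1, a Hedgehog effector, had 16.8 and 13.7 at 48 h, and the ligand gene SHH had 8.78 and 8.19. At GLIS2 itself the ETO2-GLIS2 peak was under the limit.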

How the data were processed

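Binding of HA-tagged fusion proteins was measured by ChIP-seq, and each of the 4 ChIP libraries has a peak list. Per the labels, the authors aligned ChIP and input reads to hg19 with Bowtie2 2.2.9, handled them with SAMtools 1.7 and called peaks with MACS2 2.1.1.20160309, separately for each ChIP library. The deposited fold enrichment, a linear ratio, sets the signal at the summit against the local background. The deposited −log10 p-value and −log10 q-value come from the same program, and the deposited score is 10 times the −log10 q, cut to a whole number. Other MACS2 settings are not given in the sources used here. The 12 h samples carry a treatment text that says 48 h, and their titles were followed. These values grow with depth, which by the study's library totals differed between the ChIP libraries, so they were ranked within a list only.

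Annotation was GENCODE release 44 in its GRCh37 version, and bases were read from GRCh37, the assembly behind hg19. A region's ETO2-GLIS2 peak, and its 12 h peaks, were the overlapping ones with the highest −log10 q. In all 16 motifs were counted on both strands in 200 bp windows. Shares have exact (Clopper-Pearson) intervals, their differences Newcombe intervals and medians order-statistic intervals, computed with scipy 1.17.1 and tested on simulated data. The members, gene lists and tests were chosen with earlier results of these data known.

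Named genes were the 5 regions with the highest fold enrichment for each protein, the 5 with the best worst rank over the 4 lists, the 3 nearest to each side of each limit, and genes of the 8 regulator and marker lists with a region, led by ETO2-GLIS2 fold enrichment. Others, such as genes without a region, the 12 h exceptions, KRT7 and MYC, were named after their values were seen. A few genes that the rule names are not reported here. Alternatives were other limits on −log10 q, summits within 200 bp, promoters of 500 bp, coding start sites only, no width limit, stronger 12 h peaks, 100 bp windows and the ETO2-GLIS2 summit. The groups by 12 h strength and balance were added after seeing the data.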

Additional observations from a re-analysis of the deposited data

Results flagged for a closer look

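Chromosome X was outside the comparisons, and peaks on it met the same criteria in 87 places. No control without a fusion protein was analysed here, so no background count is known for them. On chromosome X 81 of 868 protein-coding genes had a strong shared promoter region, which is 9.33% (exact 95% interval 7.48 to 11.5), below the 26.0% of chromosomes 1 to 22 and below the lowest of these, chromosome 5 with 19.6%. Of the 87 regions 82 had an AML1-ETO peak and 84 an ETO2-GLIS2 peak at 12 h. Runt sites were in 19 of 87 windows at the summits of either protein, and GLIS cores in 14 at ETO2-GLIS2 summits and in 7 at AML1-ETO summits.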

How the results depend on the processing

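No paired analysis was possible because each group has 1 library. The number of regions and of genes followed the limits. With a −log10 q of at least 20 there were 3134 regions, covering 16.2% of protein-coding genes, and with summits within 200 bp of each other 3006, covering 15.3%. The gene share was 35.99% at a −log10 q of at least 5, 23.3% with promoters of 500 bp and 27.0% without a width limit. At −log10 q limits of 5 and 20 the share with an AML1-ETO 12 h peak was 95.8% and 99.6%, that with an ETO2-GLIS2 12 h peak 89.7% and 99.6%, and with 12 h peaks of at least 5 it was 95.2% and 92.4%. Requiring near summits brought their median distance to 47 bp by construction. The Runt share at the AML1-ETO summit was 22.7% with promoters of 500 bp, 16.1% in 100 bp windows and 16.9% at the ETO2-GLIS2 summit. The long ETS share was 2.62% at a −log10 q of at least 20 and 1.86% in 100 bp windows. The divergent share was 26.4% with near summits, 22.997% with promoters of 500 bp and 11.2% with coding start sites only. Settings for the GLIS share and for the differences between summits were added after seeing the data. In all 7 of them Runt stayed more frequent at AML1-ETO summits, by 3.33 to 7.02 percentage points, and GLIS at ETO2-GLIS2 summits. Both differences were smallest with near summits, whose windows overlap most. The libraries differ in depth, so a missing peak does not show that a protein was absent.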

Other observations

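The remaining motifs, counted in the same 200 bp windows on both strands, are given here for AML1-ETO summits, ETO2-GLIS2 summits and all gene starts in that order. The CCAAT box of NF-Y was in 10.7%, 13.4% and 25.6% of windows. The CRE (TGACGTCA) of CREB and ATF factors was in 0.88%, 1.195% and 1.88%, the NRF1 site (GCGCATGC) in 1.51%, 1.96% and 2.86%, and the YY1 site (AAGATGGC) in 1.67%, 1.41% and 2.997%. The TATA box (TATAAA) was in 1.31%, 1.04% and 7.12%. The median GC content was 71%, 70.5% and 63.5% in these windows. Each of these sites was rarer at both kinds of summit than at gene starts. The E-box CACGTG of MYC and USF factors was in 5.82%, 6.88% and 5.76%, and CACCTG in 16.1%, 15.1% and 15.2%. In regions with summits at least 200 bp apart, CCAAT boxes were in 9.81% of AML1-ETO and 14.3% of ETO2-GLIS2 windows at 48 h, and in 9.79% and 16.1% at 12 h. The share of protein-coding genes with a region ran from 19.6% on chromosome 5 to 35.4% on chromosome 13.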
